A study of Anas platyrhynchos with 18 samples.

Results

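Skin of ducklings 1 day after hatch (1DB) was compared with skin of embryos at day 11 of incubation (11EM), the end and the beginning of the period in which the primary feather follicles and the first down form. The members of the comparison were the miRNAs with at least 1 CPM (count per 1000000 miRNA counts of the library) in at least 2 of the 6 libraries of both stages, 241 of the 353 miRNAs with a count in the series and of the 328 with a count in these libraries, and they held 99.9981% of the miRNA counts. All birds were white Pekin ducks (Anas platyrhynchos), and the skin came from the back above the thoracic vertebrae. The series holds 6 stages, of which 15EM, 20EM, 4WK and 10WK serve here only to estimate the spread and to place the changes in time. There were 3 libraries at 1DB and 3 at 11EM, and the sources used here do not say whether each came from a separate bird or a pool. The p-values and standard errors therefore measure the spread between libraries, part of which may be technical. This spread was estimated over all 6 stages, so libraries of the other stages enter it. Skin is a mixture of epidermis, dermis, vessels, nerves and blood, with muscle close by, and in such tissue fewer cells of a type and less RNA per cell cannot be told apart.

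A miRNA is cut from a hairpin whose 5′ side (5p) and 3′ side (3p) can each give a mature strand, and usually 1 strand is kept in an Argonaute protein while the other, the passenger strand, is degraded. The kept strand finds its target mRNAs mostly through its seed, bases 2 to 8, so miRNAs with the same seed share most predicted targets and are counted as a family. In mouse skin, miRNAs such as miR-203 and miR-205 act in the balance between dividing and differentiating keratinocytes, and the let-7 and miR-17 to miR-92 families mark late and early developmental states in many animals.

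The 1DB libraries held 6191433, 7606084 and 8568906 miRNA counts, against 13621917, 15839714 and 12834234 at 11EM, so that 3 counts corresponded to between 0.350 and 0.485 CPM at 1DB and to between 0.189 and 0.234 CPM at 11EM. miRNA counts made up 27.2% ± 5.81 of the clean reads at 1DB (SD, n = 3), against 55.4% ± 5.68 at 11EM, and the ranges did not overlap (21.02% to 32.5% against 49.3% to 60.6%). The 11EM libraries differed more among themselves than the 1DB libraries did. Over the 181 miRNAs with a mean of at least 10 CPM, the median absolute log2 ratio of a pair of libraries was 0.18 to 0.24 at 1DB and 0.33 to 0.37 at 11EM. Replicate 1 of 11EM lay at least 2-fold from the other 2 in 21 of these miRNAs, replicate 2 in 14 and replicate 3 in 18. Replicate 3 of 11EM was the only library of the 6 with a clean-read percent over 98 in the study's read summary, whereas the other 5 were under 96, and it also stood apart in cartilage miRNAs, so results that rest on it are given with and without it. The avian miR-2954, which in chicken and zebra finch lies on the Z chromosome and is higher in males, fell at separate levels within both stages, 3334, 737 and 3356 CPM at 1DB, against 621, 4124 and 3338 CPM at 11EM (log2 fold change 0.37, adjusted p = 0.696). One library of each stage was thus low; the labels give no sex. The defining miRNAs of keratinocytes (miR-203a and miR-205a) and of dermal mesenchyme (miR-199 and miR-214) were present in all 6 libraries.

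The sequences on which the comparison turned are shown first, as the chicken miRNAs of miRBase 21 to which the duck reads were matched, with the seed in capitals; they include the families that rose or fell together and the pairs that share a seed but changed in opposite directions. The members of the miR-29 family, the list with the largest median rise, differ only after the seed:
miR-29a-3p: uAGCACCAuuugaaaucgguu
miR-29b-3p: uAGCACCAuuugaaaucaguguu
miR-29c-3p: uAGCACCAuuugaaaucggu
Of the let-7 family, let-7b and let-7k-5p rose most, and let-7a-5p is printed for comparison. From let-7a-5p, counted from the 5′ end, let-7b differs by A17G and A19G, and let-7k-5p by G12A and U16A:
let-7a-5p: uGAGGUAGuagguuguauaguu
let-7b: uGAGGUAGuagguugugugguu
let-7k-5p: uGAGGUAGuagauugaauaguu
The epidermal miR-203a rose, miR-205a and miR-205b changed in opposite directions, and miR-205b differs from miR-205a by U1C and G18A, both outside the seed:
miR-203a: gUGAAAUGuuuaggaccacuug
miR-205a: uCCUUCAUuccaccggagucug
miR-205b: cCCUUCAUuccaccggaaucug
The muscle miRNAs miR-1b-3p and miR-206 also share a seed and changed in opposite directions, with U9A, A11G, A17G and A21G between miR-1b-3p and miR-206:
miR-1b-3p: uGGAAUGUuaagaaguaugua
miR-206: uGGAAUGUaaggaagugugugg
The third such pair was miR-34a-5p and miR-34c-5p, which differ at 12 positions outside the seed when counted from the 5′ end without a gap:
miR-34a-5p: uGGCAGUGucuuagcugguuguu
miR-34c-5p: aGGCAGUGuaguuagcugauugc
The 3p strands of the miR-130, miR-301 and miR-454 family share a seed, and the 3 that fell are printed:
miR-454-3p: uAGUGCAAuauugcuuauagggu
miR-301a-3p: cAGUGCAAuaauauugucaaagcau
miR-130b-3p: cAGUGCAAuaaugaaagggcgu
Both strands of the hairpins of miR-148a and miR-128 are printed because only the passenger strand was called in each:
miR-148a-3p: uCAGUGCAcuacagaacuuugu
miR-148a-5p: aAAGUUCUgugacacucagacu
miR-128-3p: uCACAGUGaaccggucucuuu
miR-128-2-5p: gGGGGCCGuuacacuguaagaga

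A miRNA was called differentially expressed (DE) at a fold change of at least 2 and an adjusted p under 0.05 in edgeR, and fold changes are 1DB over 11EM. A total of 116 of the 241 miRNAs (48.1%) were DE, of which 50 (20.7% of those tested) were higher and 66 (27.4%) were lower at 1DB, and 125 were not called. With adjusted p alone, 151 passed. The DE miRNAs that were higher at 1DB took 33.3% ± 0.74 of all miRNA counts at 1DB, against 15.9% ± 0.41 at 11EM (SD, n = 3 each). Those that were lower took 1.92% ± 0.0051 at 1DB, against 9.79% ± 0.74 at 11EM. The median log2 fold change was 2.21 over the 50 and −2.40 over the 66, and 28 and 42 of them changed at least 4-fold. The CPM of all 1DB libraries lay on 1 side of all 11EM libraries in 163 of the 241 miRNAs (67.6%), and in 46 of the 50 and 66 of the 66 DE miRNAs. They lay above in 49 miRNAs (20.3%) and below in 114 (47.3%).

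The balance of rises and falls depended on the scaling. TMM, used for the fold changes, put the median of all miRNAs at −0.07, whereas CPM of the miRNA total, used for the levels in the text, lie 0.46 lower on the log2 scale. By the miRNA total, 125 miRNAs were DE, 32 of them higher and 93 lower, so that 25.6% of the calls were rises instead of 43.1%. Scaled by clean reads, which moved the median of all miRNAs to −1.54, 171 were DE, 21 higher and 150 lower (12.3% rises). With these 2 scalings, TMM and the size factors of DESeq2, 21 rises and all 66 falls were called each time. The 21 rises were miR-29a-3p, miR-29b-3p, miR-29c-3p, let-7b, let-7k-5p, let-7j-3p, miR-203a, miR-184-3p, miR-375, miR-24-3p, miR-451, miR-223, miR-146b-5p, miR-146b-3p, miR-30e-5p, miR-193a-3p, miR-193a-5p, miR-193b-3p, miR-365-3p, miR-3538 and miR-6651-5p. Among the other 29 are abundant miRNAs such as miR-26a-5p, miR-27b-3p and miR-205a, whose direction is relative to the other miRNAs.

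**Figure D1:**
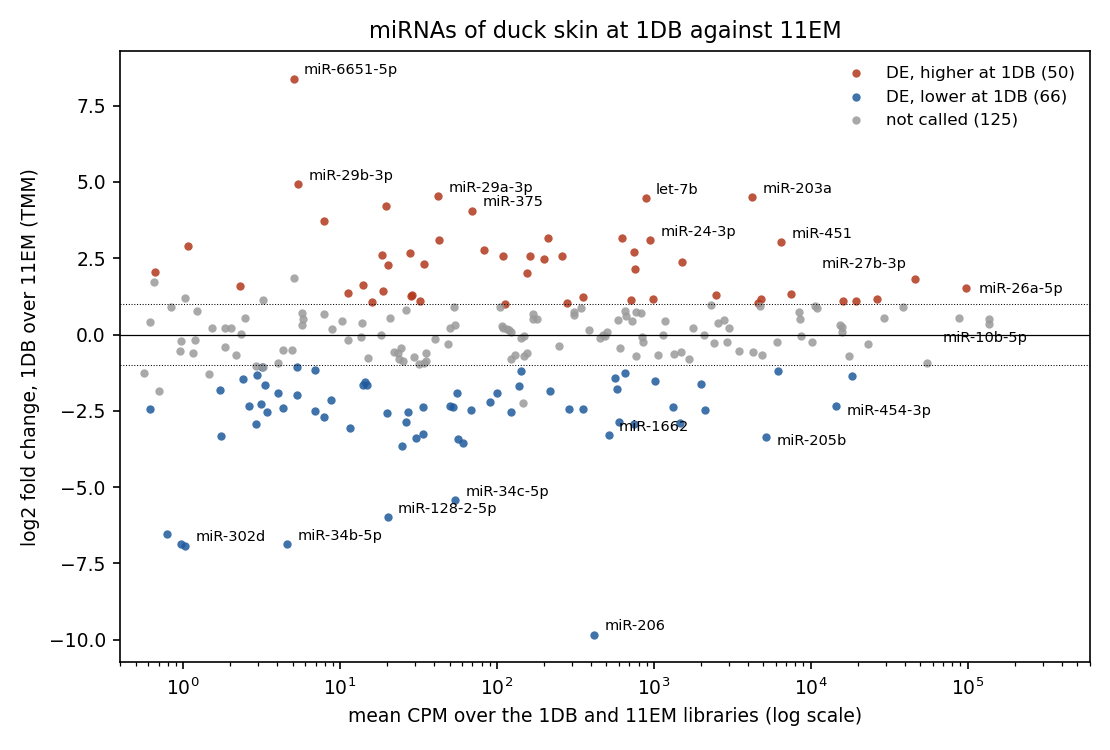
Mean CPM over the 6 libraries (x axis, log scale) and log2 fold change of 1DB over 11EM (y axis) of the 241 miRNAs, with dotted lines at a fold change of 2; red points are the 50 DE miRNAs higher at 1DB, blue points the 66 lower and grey points the 125 not called. miR-206 lies at −9.83 and miR-6651-5p at 8.39, while the most abundant miRNAs, miR-10a-5p and miR-10b-5p at the right edge, lie within a fold change of 2.

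Among miRNAs known from the epidermis, miR-203a, which in mouse drives keratinocytes out of division into differentiation, was far more abundant in the skin at 1DB. It had 7617, 7848 and 8558 CPM at 1DB, against 737, 493 and 237 CPM at 11EM. The libraries of the stages were far apart (log2 fold change 4.51 ± 0.39, adjusted p = 2.07e-07, without replicate 3 of 11EM 3.85). Of the 6 keratinocyte miRNAs tested, 3 rose and 3 fell, beside 20.7% higher and 27.4% lower over all miRNAs. miR-184-3p, which in mouse is found in the epidermis and cornea, had 319, 479 and 310.2 CPM at 1DB, against 17.5, 74.1 and 76.4 CPM at 11EM, again without overlap (log2 fold change 3.16 ± 0.56). The change of miR-205a, a miRNA of epidermal progenitors in mouse, was smaller. It had 26421, 35725 and 36746 CPM at 1DB, against 29497, 18714 and 12664 CPM at 11EM, and 1 of the 11EM libraries lay above 1 of the 1DB libraries. Its call (log2 fold change 1.18 ± 0.26) was lost without replicate 2 or 3 of 1DB or replicate 3 of 11EM (0.60 to 0.91), and by clean reads the sign turned (−0.25).

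miR-205b went the other way, with 648, 734 and 685 CPM at 1DB, against 11529.8, 9763 and 7803 CPM at 11EM. Every 1DB library was more than 10-fold below every 11EM library (log2 fold change −3.35 ± 0.75, adjusted p = 0.00122). The ratio of miR-205a to miR-205b, which no scaling changes, was 5.35, 5.61 and 5.75 on the log2 scale at 1DB, against 1.36, 0.94 and 0.70 at 11EM. Added up, the pair of sequences had 27069, 36459 and 37430.4 CPM at 1DB, against 41027, 28477 and 20467 CPM at 11EM, so that their total overlapped between the stages. The sequences differ at 2 bases only, and the sources used here do not say how many mismatches the match to the chicken miRNAs allowed; whether reads moved between the names was not tested. Both strands of miR-31, which in mouse is tied to the growth phase of the hair follicle, were lower at 1DB. miR-31-5p had 187, 237 and 179.7 CPM at 1DB, against 1361, 766 and 764 CPM at 11EM, without overlap (log2 fold change −1.79 ± 0.26).

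The epithelial miR-200 family keeps the epithelial state by repressing the Zeb factors in mammals. It had 1 call, a fall, among 6 strands tested, beside 27.4% lower over all miRNAs. By the miRNA total 2 were lower, by clean reads 4, and in a fit of the 6 libraries alone none. The rare miR-429-5p was lower, with a log2 fold change of −1.44 that was not called without replicate 1 of 1DB (−1.23) or replicate 1 of 11EM (−0.79) and lay at −2.11 without replicate 3 of 11EM. The main strands miR-200a-3p, miR-200b-3p and miR-429-3p had log2 fold changes of 0.59, 0.72 and −0.09. Calls in this family moved with single libraries, and without replicate 1 of 11EM miR-200b-3p was called higher (1.29), whereas miR-200a-5p was called lower without replicate 2 of 1DB (−1.05), replicate 3 of 1DB (−1.22) or replicate 3 of 11EM (−1.40). miR-183, which in mouse marks sensory cells, had 145, 103 and 78.4 CPM at 1DB, against 1568, 1056 and 676 CPM at 11EM. Every 1DB library was below every 11EM library (log2 fold change −2.87 ± 0.47, adjusted p = 9.78e-05). miR-375, known from pancreatic islets and, in human skin, from the Merkel cells of touch, moved the opposite way with 109, 129 and 146 CPM at 1DB, against 13.2, 3.72 and 15.1 CPM at 11EM (log2 fold change 4.06 ± 0.59, adjusted p = 2.69e-05). All 1DB libraries were above 100 CPM and all 11EM libraries under 20 CPM. Of the other 4 tested miRNAs of the list of liver, pancreas and gut, none was called; without replicate 3 of 11EM or replicate 2 of 1DB, miR-215-5p was called lower (−1.37 each). The liver miRNA miR-122-5p was under 20 CPM in all 6 libraries compared.

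**Figure D2:**
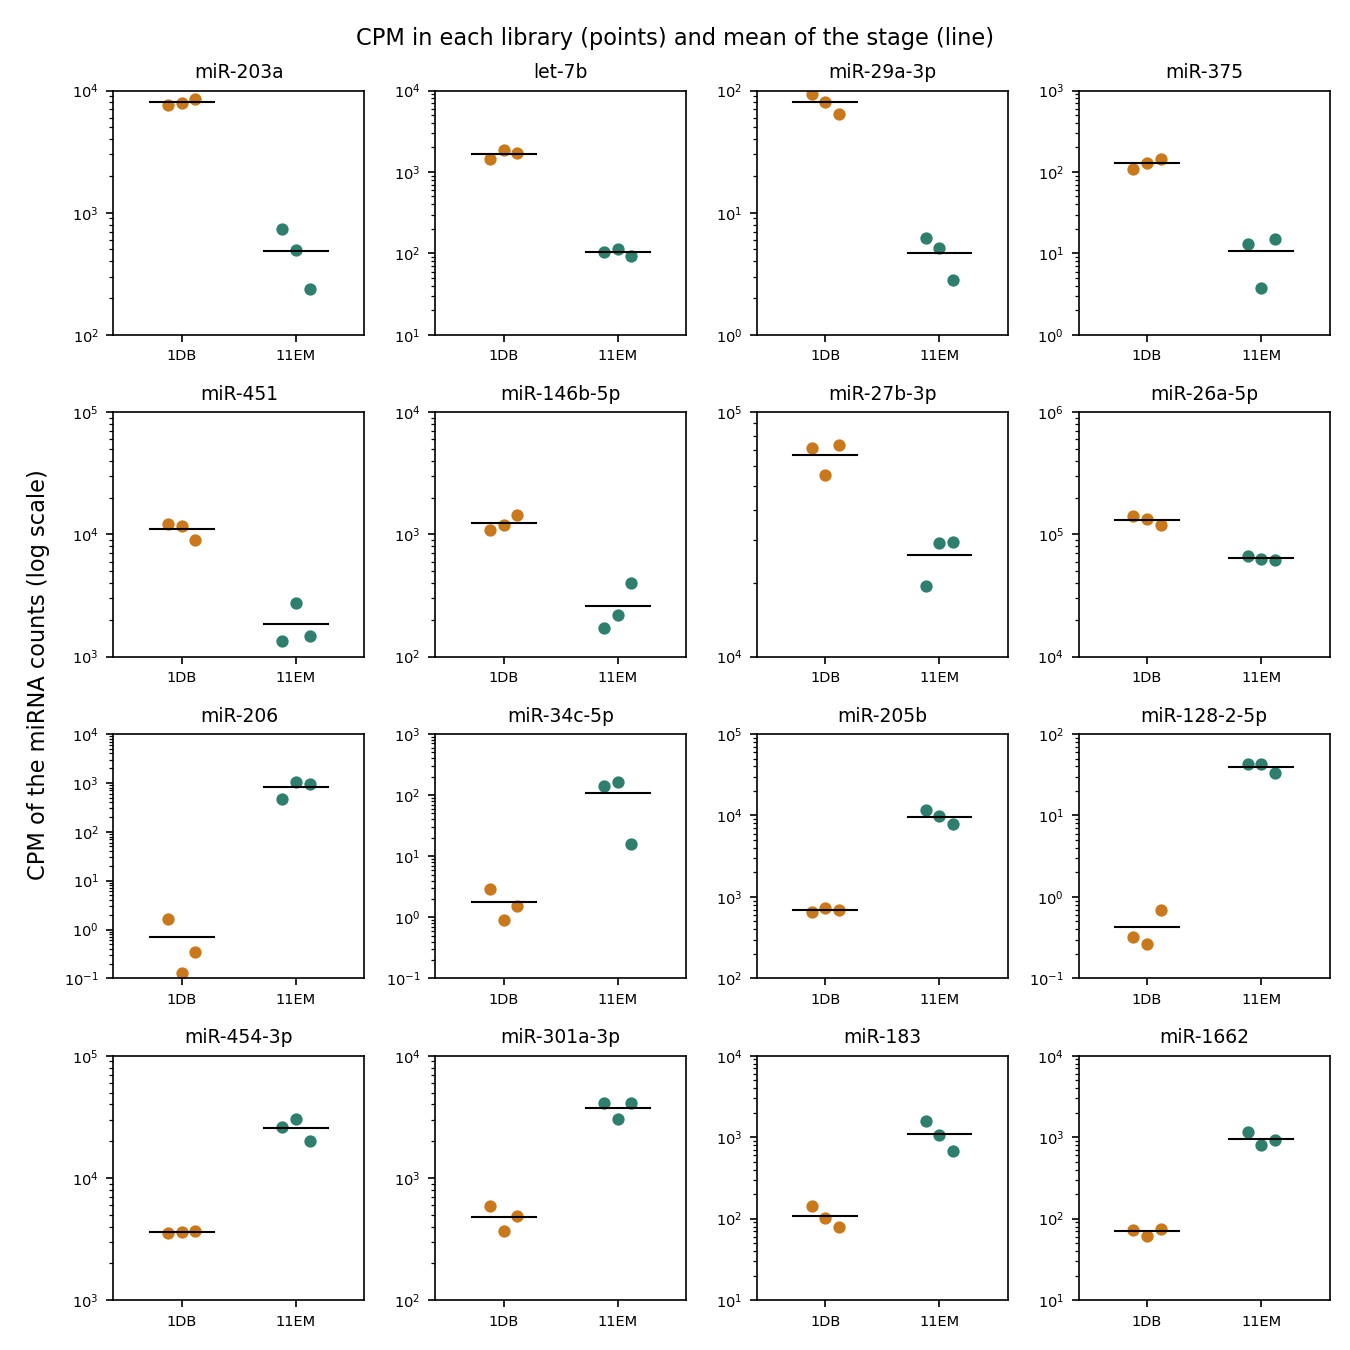
CPM of the miRNA counts (y axis, log scale, each panel with its own range) of 16 miRNAs in the 3 libraries of 1DB (left) and the 3 of 11EM (right), with a line at the mean of the stage. The upper 8 were DE and higher at 1DB and the lower 8 lower, and in none of the 16 did the stages overlap.

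let-7 miRNAs accumulate late in development in worms, flies and vertebrates and repress early factors such as Lin28. Of the 8 let-7 main strands tested, which share the seed, 6 rose, none fell and 2 were not called. Over all miRNAs, 20.7% were higher and 27.4% lower. By clean reads, 2 of the 8 rose and 1 fell. The rise was uneven within the family. let-7b had 1459, 1850.2 and 1699 CPM at 1DB, against 104, 114 and 93.3 CPM at 11EM (log2 fold change 4.47 ± 0.22, adjusted p = 1.62e-09). let-7c-5p, from which let-7b differs by A17G alone, had 2832, 2972 and 2665 CPM at 1DB, against 2297, 2502 and 3648 CPM at 11EM, with overlap and no call (log2 fold change 0.46 ± 0.17). Relative to let-7c-5p, let-7b was at −0.96, −0.68 and −0.65 on the log2 scale at 1DB, against −4.46, −4.46 and −5.29 at 11EM. let-7k-5p had 986, 1393 and 887 CPM at 1DB, against 159, 139 and 200.2 CPM at 11EM, without overlap (log2 fold change 3.16 ± 0.20). let-7a-5p and let-7j-5p have the same sequence, so their reads are split between the names, and added up they had 12849.8 ± 381 CPM at 1DB, against 7131 ± 1189 CPM at 11EM (log2 fold change 1.31 ± 0.17). All 1DB libraries were above all 11EM libraries in 7 of the 8, as in 20.3% of all miRNAs tested.

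The other let-7 main strands changed by close to 2-fold and depended on single libraries and on the scaling. let-7f-5p (1.11) and let-7i (1.04) were not called without replicate 2 or 3 of 1DB or replicate 1 or 3 of 11EM (0.80 to 0.99 for let-7f-5p and 0.77 to 0.88 for let-7i), which left 4 calls, and without replicate 2 of 11EM let-7g-5p was called as well (1.03). By the miRNA total 2 of the 8 were called higher, and by clean reads 2 were called higher (let-7b and let-7k-5p) and let-7c-5p lower. Of the 7 passenger strands, 4 rose, of which let-7a-3p and let-7k-3p are 1 sequence, and let-7c-3p fell (log2 fold change −2.52 ± 0.28). Over all miRNAs, 20.7% were higher and 27.4% lower. The balance turned with the scaling, to 1 higher and 2 lower by the miRNA total and to 1 higher and 3 lower by clean reads. let-7j-3p rose most, with 49.1, 56.7 and 33.03 CPM at 1DB, against 8.96, 11.8 and 8.88 CPM at 11EM (log2 fold change 2.67 ± 0.25). The calls of let-7a-3p, let-7f-3p and let-7k-3p were lost without replicate 3 of 11EM (0.93, 0.96 and 0.90), whereas let-7a-2-3p was then called lower (−1.15).

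The miR-29 family, which represses collagens and other matrix genes in mammals, rose in its 3p strands. All 4 tested strands were DE and higher at 1DB, beside 20.7% of all 241 miRNAs. Their median log2 fold change was 4.38, beside −0.07 over all 241 (by clean reads, 3 of the 4 rose). The fourth strand, miR-29b-1-5p, had 23 counts over the 1DB libraries and 14 over the 11EM libraries (log2 fold change 2.04). Its call was lost without replicate 2 or 3 of 1DB and by clean reads. miR-29b-1-5p and miR-29b-3p passed the filter only through the 1DB libraries, so they could not enter as falls. miR-29a-3p had 94.5, 80.7 and 64.3 CPM at 1DB, against 6.24, 5.11 and 2.81 CPM at 11EM (log2 fold change 4.54 ± 0.33, adjusted p = 4.10e-08, without replicate 3 of 11EM 3.95). miR-29b-3p had 10.8, 12.4 and 8.05 CPM at 1DB, against 0.661, 0.253 and 0.468 CPM at 11EM, which at 11EM is between 4 and 9 counts per library (log2 fold change 4.92 ± 0.49). miR-29c-3p, whose sequence is that of miR-29a-3p without the last base, had 38.8, 39.97 and 31.2 CPM at 1DB, against 3.60, 2.97 and 1.48 CPM at 11EM (log2 fold change 4.22 ± 0.32, without that library 3.61), so that the reads of these names may be shared. The family stayed rare: its 3p strands together had 144, 133 and 104 CPM at 1DB, against 10.5, 8.33 and 4.75 CPM at 11EM. The stages did not overlap in any of its tested members, as in 67.6% of all miRNAs tested.

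The miRNAs that made up most of the gain in counts were miR-26a-5p, a repressor of the chromatin factor Ezh2 in mammals, and miR-27b-3p. miR-26a-5p had 141497, 133415 and 120578 CPM at 1DB, against 66521, 62751 and 62097 CPM at 11EM, the largest gain in mean CPM of any DE miRNA (log2 fold change 1.51 ± 0.11, adjusted p = 4.10e-08). miR-27b-3p had 71547, 55167 and 73600.2 CPM at 1DB, against 19508, 29113 and 29389.5 CPM at 11EM (log2 fold change 1.83 ± 0.20). Both were called higher by the miRNA total (1.05 and 1.36) and not by clean reads (0.01 and 0.31). miR-27b comes from a cluster with miR-23b and miR-24, and the 6 tested strands of that cluster had a median of 1.72. Of these, 4 were higher, beside 20.7% over all miRNAs, none lower and 2 not called (by clean reads, only miR-24-3p was higher). miR-24-3p had 1539.9, 1637 and 1737 CPM at 1DB, against 302, 195 and 303 CPM at 11EM (log2 fold change 3.09 ± 0.19, adjusted p = 1.01e-08). miR-23b-3p had 1235, 1064 and 1195 CPM at 1DB, against 263, 385 and 437 CPM at 11EM (log2 fold change 2.15 ± 0.20). All 3 main strands were thus higher in every 1DB library. The strands of miR-24 come from a second hairpin too, so that they cannot be placed in the cluster alone.

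A second group with strands higher at 1DB, chosen after the values were seen, was miR-193a, miR-193b and miR-365, which in mouse include a cluster needed for brown fat cells in culture. miR-365-3p had 377, 489 and 403 CPM at 1DB, against 99.8, 94.6 and 98.6 CPM at 11EM (log2 fold change 2.58 ± 0.21). miR-193a-3p and miR-193b-3p, which share a seed, had log2 fold changes of 2.48 ± 0.24 and 2.59 ± 0.26, without overlap. Their timing differed. From 11EM to 15EM, miR-193a-3p and miR-365-3p rose (2.86 and 2.29), whereas miR-193b-3p did not (−0.04). From 20EM to 1DB, miR-193b-3p rose (2.28) and miR-193a-3p was lower (−0.69). The passenger strand miR-365-2-5p was not called (0.17). Of the miR-30 family, 2 of 9 tested strands rose, close to the 20.7% higher over all miRNAs (by clean reads, 1 rose and 7 fell). miR-30e-5p had 189, 181 and 165 CPM at 1DB, against 43.8, 30.7 and 49.01 CPM at 11EM (log2 fold change 2.58 ± 0.19), while the more abundant miR-30d, with the same seed, had 14607 ± 1200.0 CPM at 1DB and 16835 ± 1859 CPM at 11EM and was not called (log2 fold change 0.26 ± 0.12). The call of the other, miR-30b-5p, was lost without replicate 1 or 2 of 1DB or replicate 1 or 3 of 11EM (0.72 to 0.99). Of the 8 strands of miR-26a, miR-21, miR-22 and miR-148a, miR-22-3p had 44645 ± 3069 CPM at 1DB and 32776 ± 2024 CPM at 11EM, and it passed the adjusted p but not the fold change (0.91, adjusted p = 1.23e-05). miR-22-5p was called higher (1.05) and lost the call without any 1 of the 3 libraries of 1DB or replicate 1 or 3 of 11EM (0.77 to 0.99). miR-21-3p was not called (−0.72). Among the fits that left out 1 library, it was called lower only without replicate 3 of 11EM (−1.12).

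Rare but nearly absent at 11EM was miR-6651-5p, for which no role is given here. It had 15.02, 12.2 and 3.15 CPM at 1DB, against 0, 0 and 0.0779 CPM at 11EM, that is 213 counts over the 1DB libraries and 1 over the 11EM libraries. It passed the filter only through the 1DB libraries, so it could not enter as a fall. The ratio of CPM was 403, with a 95% interval for counting error of 71.5 to 15983. miR-3538 had 27.3, 5.92 and 9.80 CPM at 1DB, against 1.47, 0.631 and 2.42 CPM at 11EM, and 1 of the 1DB libraries was high (log2 fold change 3.72 ± 0.73, adjusted p = 3.98e-04, without that library 2.89).

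Several miRNAs of blood and vessels were higher at 1DB. miR-451, which red blood cells make in large amounts, had 12266, 11758 and 9047 CPM at 1DB, against 1355, 2758 and 1475 CPM at 11EM (log2 fold change 3.02 ± 0.35, adjusted p = 2.60e-06). The lowest 1DB library was more than 3-fold above the highest 11EM library. Of the 3 erythroid strands tested, miR-451 alone was called, beside 20.7% higher and 27.4% lower over all miRNAs. Its cluster partner miR-144-3p had 368 ± 117 CPM at 1DB and 548 ± 208 CPM at 11EM (log2 fold change −0.10 ± 0.29). The erythroid list summed to 12764, 12029 and 9382 CPM at 1DB, against 1876, 3529 and 1830.0 CPM at 11EM, so the sum was higher in every 1DB library; the part of blood in the other results was not tested. Of the 9 leukocyte strands tested, 5 rose and none fell, beside 20.7% higher and 27.4% lower over all miRNAs (by clean reads, 3 rose and 3 fell). miR-223, a miRNA of granulocytes and monocytes, had 167, 118 and 128 CPM at 1DB, against 27.1, 26.5 and 30.1 CPM at 11EM (log2 fold change 2.77 ± 0.29). miR-146b-5p, which in mammals is induced by inflammatory signals and dampens them, had 1081, 1196 and 1446 CPM at 1DB, against 172, 217 and 397 CPM at 11EM (log2 fold change 2.71 ± 0.29), and its relative miR-146c-5p, the most abundant of the list, had 13738 ± 1444 CPM at 1DB and 17843 ± 2043 CPM at 11EM and was not called (log2 fold change 0.10). The pan-leukocyte miR-142-5p and miR-142-3p rose by 1.14 and 1.11, and neither was called without replicate 2 or 3 of 1DB or replicate 3 of 11EM, nor miR-142-3p without replicate 1 of 11EM (0.76 to 0.94 and 0.80 to 0.99), which left 3 of the 9. miR-146a-3p, not called (1.12), was called higher without replicate 1 of 1DB (1.35) or replicate 1 of 11EM (2.07). The leukocyte list summed to 15922, 14910.4 and 17973 CPM at 1DB, against 16877, 18660.2 and 21142 CPM at 11EM, where miR-146c-5p made up most of the sum and the stages overlapped.

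miR-126, made from an intron of the endothelial gene Egfl7, rose on both strands. miR-126-5p had 25221, 22741 and 22549 CPM at 1DB, against 11086, 15943 and 18433 CPM at 11EM (log2 fold change 1.10 ± 0.19), and the 1DB libraries were above the 11EM libraries. miR-126-3p overlapped between the stages (log2 fold change 1.16 ± 0.23). Both changed by close to 2-fold. miR-126-5p was not called without replicate 2 or 3 of 1DB or replicate 1 or 3 of 11EM (0.85 to 0.95), and miR-126-3p was not called without replicate 2 of 1DB (0.81) or replicate 1 of 11EM (0.93). By clean reads neither strand of miR-126 was called, and the signs of miR-126 and miR-142 turned (−0.43 for miR-126-5p and −0.35 for miR-142-5p), whereas those of miR-451, miR-223 and miR-146b-5p did not.

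The largest change of all was that of miR-206, a miRNA of skeletal muscle that rises as myoblasts differentiate. It passed the filter only through the 11EM libraries, so it could not enter as a rise. It had 1.62, 0.131 and 0.350 CPM at 1DB, against 476, 1052 and 970.1 CPM at 11EM, that is 14 counts over the 1DB libraries and 35605 over the 11EM libraries. The CPM were 1345-fold lower at 1DB, with a 95% interval for counting error of 801 to 2460 (log2 fold change −9.83 ± 2.24, adjusted p = 0.0014, without replicate 1 of 1DB −11.18). Of the 10 muscle strands tested, 4 fell, 2 rose and 4 were not called (by clean reads, 7 fell and none rose), beside 27.4% lower and 20.7% higher over all miRNAs. miR-133a-3p, the most abundant of them, had 8454, 9400.2 and 9769 CPM at 1DB, against 5399, 10635 and 6865 CPM at 11EM and was not called (log2 fold change 0.73 ± 0.57), with overlapping libraries. The ratio of miR-133a-3p to miR-206 was 12.3, 15.5 and 14.5 on the log2 scale at 1DB, against 3.50, 3.34 and 2.82 at 11EM. miR-499-5p, which lies in an intron of a slow myosin gene in mammals, had 138, 157 and 95.8 CPM at 1DB, against 793, 1085 and 2204 CPM at 11EM (log2 fold change −2.94 ± 0.58), and its passenger strand miR-499-3p fell as well (log2 fold change −3.55 ± 0.63). miR-1b-3p, with the seed of miR-206, rose and had 40.9, 56.5 and 64.3 CPM at 1DB, against 14.8, 12.4 and 18.5 CPM at 11EM (log2 fold change 2.30 ± 0.39). The other rise was miR-1b-5p, from the same hairpin, with 41 counts over the 1DB libraries and 14 over the 11EM libraries (2.89). It passed the filter only through the 1DB libraries and was not called by limma or by clean reads. The more abundant miR-1a-3p, from which miR-1b-3p differs by A9U, was not called (log2 fold change −0.68 ± 0.96). The remaining lower strand was miR-133a-5p (−2.34), whose call was lost without any 1 of the 3 libraries of 1DB (−2.45, −2.41 and −2.63) or replicate 2 of 11EM, through the adjusted p. Summed over the list, muscle miRNAs had 9136, 10142 and 10530.4 CPM at 1DB, against 7477, 14299 and 11375 CPM at 11EM. This sum overlapped between the stages. miR-133a-3p made up most of it in every library, so the sum does not describe the other muscle strands. The part of muscle in the results was not tested.

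The miR-34 and miR-449 family, which in mouse and frog serves cells with many cilia, changed in both directions. miR-34c-5p had 2.91, 0.920 and 1.52 CPM at 1DB, against 139, 165 and 15.6 CPM at 11EM, and replicate 3 of 11EM was low (log2 fold change −5.44 ± 0.95, without that library −6.27). miR-34b-5p had 1 count over the 1DB libraries and 405 over the 11EM libraries, a ratio of 214 in CPM with a counting interval of 38.2 to 8480. miR-34b-3p had no count at 1DB and 85 at 11EM, so that it was at least 15.0-fold lower, taking 3 counts over the 1DB libraries as the limit, which covers counting error only as do the intervals; without replicate 1 or 2 of 11EM it did not reach the filter. miR-34a-5p, with the seed of miR-34c-5p, rose and had 36.7, 35.2 and 23.1 CPM at 1DB, against 11.97, 6.82 and 8.34 CPM at 11EM (log2 fold change 2.26 ± 0.39, not called by clean reads). No 1DB library overlapped with an 11EM library in any of these 4, as in 67.6% of all miRNAs tested. Both strands of miR-34b passed the filter only through the 11EM libraries, so they could not enter as rises. miR-449a and miR-449c-5p were under 20 CPM in all 6 libraries compared and were not called; miR-449a was called without replicate 1 of 11EM (2.57).

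The miR-17 to miR-92 cluster and its relative, the miR-106 to miR-363 cluster, promote proliferation in mammals; of their 17 tested strands, 10 fell, none rose and 7 were not called, with a median of −1.43, beside 27.4% lower over all miRNAs (by clean reads, all 17 fell). In all 17 the 1DB libraries were below the 11EM libraries in CPM, as in 114 of the 241 miRNAs tested (47.3%). The most abundant, miR-92-3p, had 30245, 31377 and 28993 CPM at 1DB, against 73857, 109112 and 55996 CPM at 11EM and passed the adjusted p (adjusted p = 0.00262) but not the fold change (log2 fold change −0.94 ± 0.23), and it was called without replicate 2 of 1DB (−1.16), replicate 3 of 1DB (−1.22) or replicate 3 of 11EM (−1.45). miR-18a-5p and miR-18b-5p, which share a seed, had log2 fold changes of −1.84 ± 0.18 and −2.44 ± 0.26. miR-106-5p had 254, 248 and 224 CPM at 1DB, against 756, 901 and 1039 CPM at 11EM (log2 fold change −1.43 ± 0.20). miR-20a-5p, with the same seed, had a smaller change that was not called (−0.46 ± 0.14). The largest change among the 17 was that of the passenger strand miR-18b-3p, with 3.23, 4.86 and 3.85 CPM at 1DB, against 48.3, 79.4 and 43.01 CPM at 11EM (log2 fold change −3.37 ± 0.57).

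The miR-130, miR-301 and miR-454 family, whose seed is printed above, had 9 of 12 tested strands lower, none higher and 3 not called, with a median of −1.90, beside 27.4% lower over all miRNAs (by clean reads, all 12 were lower). miR-454-3p had 3531, 3627 and 3685 CPM at 1DB, against 26072, 30581 and 19964 CPM at 11EM (log2 fold change −2.35 ± 0.24, adjusted p = 8.20e-07). The 1DB libraries were close to each other and all far below the 11EM libraries. miR-301a-3p had 587, 365 and 488 CPM at 1DB, against 4090.5, 3033 and 4132 CPM at 11EM (log2 fold change −2.49 ± 0.22), whereas miR-301b-3p, which differs from it by A11G, was not called (log2 fold change −0.57 ± 0.22). The passenger strand miR-301a-5p had the largest fall of the family among strands with a count in every 1DB library, with 3.71, 3.02 and 1.52 CPM at 1DB, against 42.6, 46.7 and 52.0 CPM at 11EM (log2 fold change −3.66 ± 0.31). miR-454-5p had no count at 1DB and 66 at 11EM, at least 11.6-fold fewer in CPM by the limit above. The 1DB libraries lay below the 11EM libraries in all of these, as in 47.3% of all miRNAs tested. miR-454-5p passed the filter only through the 11EM libraries. miR-130b-3p had 2913, 3059 and 2949 CPM at 1DB, against 9793, 10304 and 8165 CPM at 11EM (log2 fold change −1.20 ± 0.14), and miR-130c-3p, with the same seed, had 1169.7 ± 28.3 CPM at 1DB and 1175 ± 79.4 CPM at 11EM and was not called (0.46). Together the 6 strands with this seed had 10344, 10041 and 10199.6 CPM at 1DB, against 46133, 48982 and 37640.0 CPM at 11EM. Among the fits that left out 1 library, miR-130a-3p was called lower only without replicate 3 of 1DB (−1.13) or of 11EM (−1.17). By clean reads it was also called lower.

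Of the miR-15 and miR-16 family, which restrains the cell cycle in mammals, 1 of 10 strands rose, 2 fell and 7 were not called, beside 20.7% higher and 27.4% lower over all miRNAs. By the miRNA total none rose and 4 fell, and by clean reads none rose and 7 fell. The rise of miR-15b-5p (1.24) was lost without replicate 3 of 1DB (0.95) or of 11EM (0.84), and the rare miR-16c-3p was called lower without replicate 2 of 1DB, when no count was left at 1DB. Of the early embryo miRNAs miR-302 and miR-367, which mark pluripotent cells, only miR-302d was tested. It had no count at 1DB and 84 at 11EM, at least 14.8-fold fewer in CPM by the limit above, and without replicate 1 or 3 of 11EM it did not reach the filter; by DESeq2 it was not called. Other falls were outside these families. miR-1662, a miRNA known from chicken, had 73.7, 60.9 and 75.3 CPM at 1DB, against 1168, 793 and 923 CPM at 11EM (log2 fold change −3.30 ± 0.26, adjusted p = 8.27e-08), without overlap. miR-551-5p had 5.65, 7.63 and 8.17 CPM at 1DB, against 90.9, 118 and 107 CPM at 11EM (log2 fold change −3.41 ± 0.33). miR-1805-3p had 5.17, 4.86 and 4.32 CPM at 1DB, against 64.2, 52.3 and 71.8 CPM at 11EM (log2 fold change −3.25 ± 0.32). In all 3 the libraries of the stages were far apart.

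Of the miR-181 family, known from lymphocytes, 4 of 5 strands fell, beside 27.4% lower over all miRNAs. The falls were miR-181b-5p and the passenger strands miR-181a-3p, miR-181b-1-3p and miR-181b-2-3p. miR-181b-5p had 7886, 7846 and 8495 CPM at 1DB, against 26517, 31048 and 28291 CPM at 11EM (log2 fold change −1.36 ± 0.18), while miR-181a-5p, with the same seed and among the most abundant miRNAs, had 83543, 88244 and 98421 CPM at 1DB, against 87736, 77796 and 94736 CPM at 11EM and was not called (log2 fold change 0.53 ± 0.12). The miRNAs of the Hox gene clusters, which mark the position along the body axis, were not called. miR-10b-5p had 135613, 148856 and 134877 CPM at 1DB, against 97919.8, 107865 and 201386 CPM at 11EM (log2 fold change 0.50 ± 0.23), and miR-10a-5p had 122002, 122253 and 145818 CPM at 1DB, against 214991, 137913 and 75325 CPM at 11EM (log2 fold change 0.35 ± 0.29); these were the most abundant miRNAs of the comparison. Relative to miR-10b-5p of the same library, miR-10a-5p lay at −0.15, −0.28 and 0.11 on the log2 scale at 1DB, against 1.13, 0.35 and −1.42 at 11EM, so that the 11EM libraries lay far apart. By clean reads all 5 tested Hox strands were called lower.

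The 4 strands of miR-199 and miR-214, made by dermal mesenchyme, were not called, and the list summed to 22898, 21510.0 and 17017 CPM at 1DB, against 32286, 42003 and 45315 CPM at 11EM. The cartilage list, led by miR-140, was not called either but depended on 1 library. miR-140-3p had 11999.5, 12748 and 12669 CPM at 1DB, against 4372, 3630.4 and 18942 CPM at 11EM (log2 fold change 0.93 ± 0.44); without replicate 3 of 11EM, which was the high one, miR-140-3p and miR-140-5p were both called higher at 1DB (1.79 and 1.77). miR-140-3p, but not miR-140-5p, was also called once a replicate block was put in the fit (1.12) or the class of clean-read percent, which sets that library apart, was a covariate (1.33). Of 9 neural strands, miR-9-3p and miR-124c-3p fell (−1.21 and −1.33), beside 27.4% lower over all miRNAs, and miR-124c-3p was not called with that covariate (−1.03). miR-124a-3p was called lower without replicate 3 of 1DB (−1.79) or replicate 2 of 11EM (−1.68); miR-9-5p had 99.7 ± 7.68 CPM at 1DB and 210.3 ± 24.1 CPM at 11EM and miR-124a-3p was under 5 CPM in all 6 libraries compared. Of the miR-221 and miR-222 family, 1 of 4 strands rose, miR-221-3p (1.17), beside 20.7% higher over all miRNAs. It was not called without replicate 2 or 3 of 1DB or replicate 3 of 11EM (0.73 to 0.94). Of miR-103 and miR-107, miR-107-5p fell (−1.83, without replicate 3 of 1DB −2.77) and 2 were not called, beside 27.4% lower over all miRNAs. Of these 2, miR-107-3p was called lower without replicate 3 of 11EM (−1.03). Of 6 strands of miR-99, miR-100 and miR-125b, only miR-100-3p fell, beside 27.4% lower over all miRNAs. miR-204 and miR-211, which share 1 sequence here and are made in pigment cells in mammals, were not called (0.91 and 0.90). By clean reads no strand of these lists rose, and 3 of 4 fell in mesenchyme, 2 of 4 in cartilage, 7 of 9 in the neural list, 3 of 4 of miR-221 and miR-222, 3 of 3 of miR-103 and miR-107, 5 of 6 of miR-99, miR-100 and miR-125b, and none of miR-204 and miR-211.

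**Figure D3:**
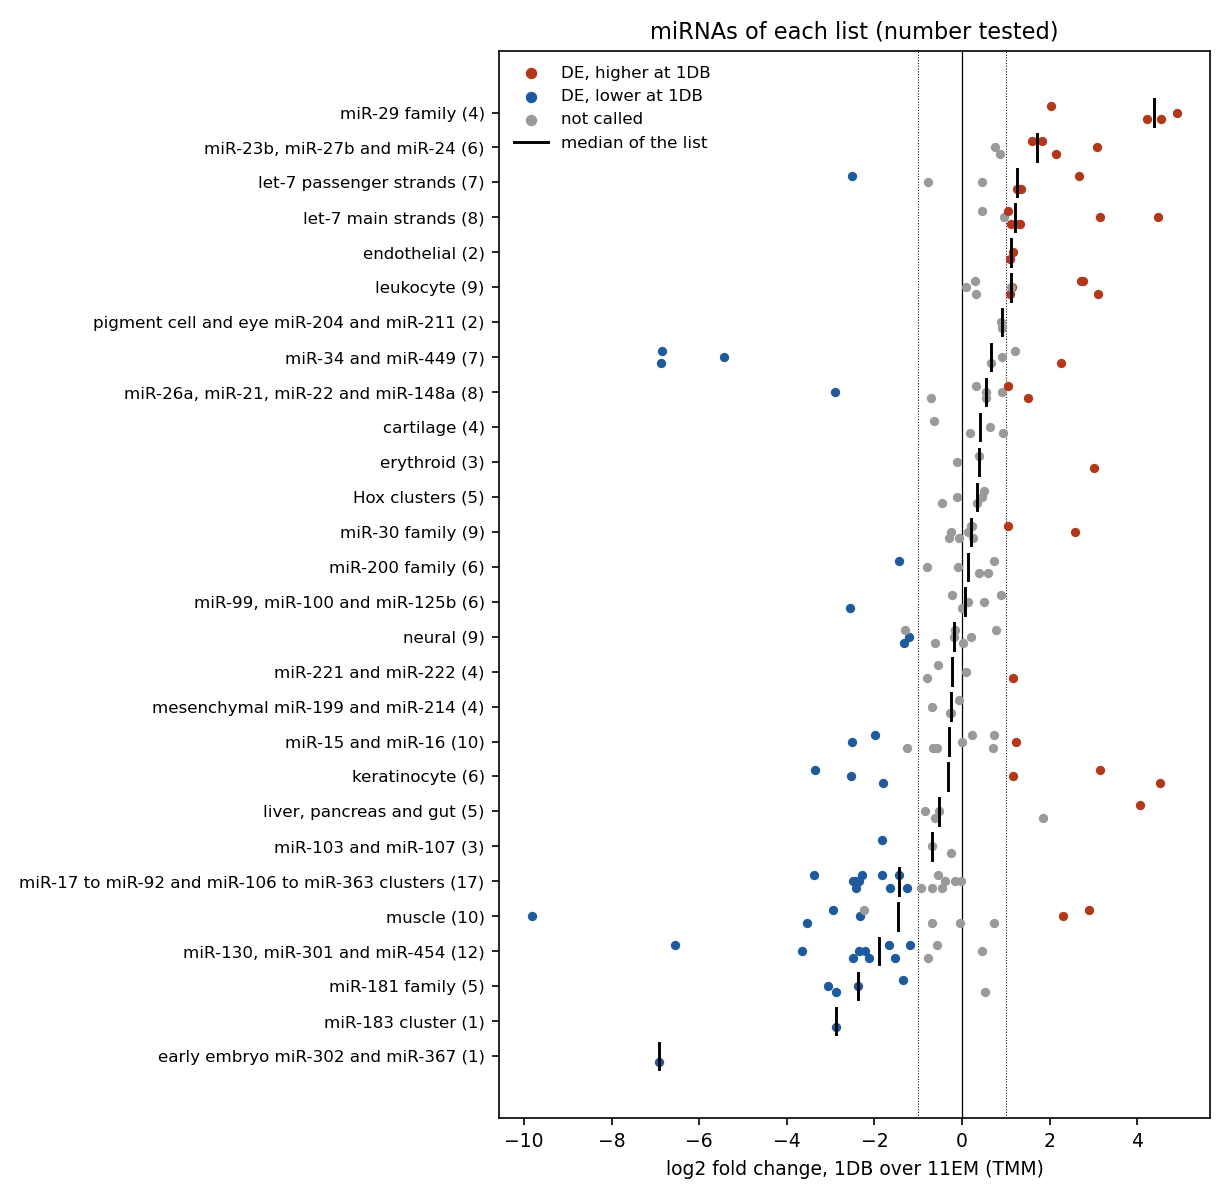
log2 fold change of 1DB over 11EM (x axis) of the tested members of 28 lists of miRNAs (rows, with the number tested in brackets, ordered by their median, the black line); red points were DE and higher at 1DB, blue points DE and lower, grey points not called, and dotted lines mark a fold change of 2. The miR-29 family lies highest, with a median of 4.38, and the miR-181 family, with −2.38, is the lowest list of more than 1 tested member.

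A seed was shared by at least 2 tested miRNAs of different sequence in 31 cases (88 miRNAs). Of these seeds, 9 had no DE member, 9 had 1, and 13 had 2 or more. Of the 13, 5 had only rises, 5 had only falls, and 3 had both, namely miR-205a against miR-205b, miR-1b-3p against miR-206, and miR-34a-5p against miR-34c-5p. Scaled by clean reads, the rising members miR-205a, miR-1b-3p and miR-34a-5p were not called, whereas the 3 falling members were. The call of miR-205a was also lost by the miRNA total. In the last 2 pairs the order of the members was turned round. The ratio of miR-1b-3p to miR-206 was 4.59, 8.16 and 7.30 on the log2 scale at 1DB, against −5.01, −6.41 and −5.71 at 11EM. The ratio of miR-34a-5p to miR-34c-5p was 3.62, 5.16 and 3.88 at 1DB, against −3.53, −4.59 and −0.90 at 11EM. Summed over the seed, miR-1a-3p, miR-1b-3p and miR-206 had 114, 129.9 and 164 CPM at 1DB, against 592, 1278 and 1217 CPM at 11EM.

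The strands of a hairpin come from 1 precursor, and their ratio within a library does not depend on the scaling. In 92 hairpins both strands were tested, with hairpins of the same pair of strand names counted once. The strand with fewer counts over the 6 libraries is called the minor strand. Counts of a strand that several hairpins make were added up over them, so its shares do not describe 1 hairpin alone. The minor strand took a smaller share of the hairpin in all 1DB libraries than in any 11EM library in 47 of the 92, a larger share in 11, and the shares overlapped in 33. The remaining hairpin, that of miR-34b, had no count of either strand in 2 of the 1DB libraries. The log2 fold change of the minor strand was below that of the major strand in 63 of the 92, with a median difference of −0.67. Of the 92 minor strands, 36 were lower and 15 higher at 1DB, while of the 86 major strands, counted once where they have several hairpins, 17 were lower and 20 higher. Over all miRNAs, 27.4% were lower and 20.7% higher. Some of the falling minor strands passed the filter only through the 11EM libraries, so they could not enter as rises. Among them were miR-128-2-5p, miR-454-5p, miR-19a-5p, miR-107-5p, miR-20b-3p, miR-31-3p, miR-135a-2-3p, miR-34b-3p and miR-1805-5p. The rising miR-29b-1-5p and miR-1b-5p passed only through the 1DB libraries and could not enter as falls. In 18 hairpins only the minor strand was called and fell, and in 2 only the major strand was called and fell.

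The hairpin of miR-148a showed this at high counts. miR-148a-3p was not called (log2 fold change 0.54 ± 0.15), and miR-148a-5p had 331, 299.9 and 159 CPM at 1DB, against 2432, 2187 and 3438 CPM at 11EM (log2 fold change −2.91 ± 0.26, adjusted p = 3.06e-07). Its share of the hairpin was 0.866% ± 0.282 at 1DB, against 8.53% ± 1.59 at 11EM. For miR-100-3p, the share was 0.218% ± 0.0255 at 1DB, against 2.26% ± 0.411 at 11EM. That of miR-181a-3p was 0.361% ± 0.0323 at 1DB, against 2.63% ± 0.404 at 11EM. let-7c-3p took 0.214% ± 0.0176 at 1DB, against 1.75% ± 0.546 at 11EM, and miR-133a-5p took 0.138% ± 0.0319 at 1DB, against 1.13% ± 0.0742 at 11EM. In none of these hairpins was the major strand called, and the shares of the stages did not overlap. The largest difference between strands was that of miR-128-2-5p, with 0.323, 0.263 and 0.700 CPM at 1DB, against 43.02, 42.99 and 33.6 CPM at 11EM (log2 fold change −5.98 ± 0.70, without replicate 3 of 1DB −6.88), while miR-128-3p, which the hairpins of miR-128-1 and miR-128-2 share, had 3048 ± 118 CPM at 1DB and 6703 ± 298 CPM at 11EM and was not called (log2 fold change −0.67 ± 0.12). The other minor strand of that pair, miR-128-1-5p, fell less (log2 fold change −1.93 ± 0.24).

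Where both strands were called, they mostly moved together, in 29 of 30 hairpins (17 lower and 12 higher). The exception was miR-15b, whose 5p strand rose while miR-15b-3p fell (log2 fold change −1.99 ± 0.38). The opposite order was seen in miR-30e, where the 3p strand had more counts and was not called (0.23) and the share of miR-30e-5p was 9.90% ± 0.577 at 1DB, against 2.15% ± 0.653 at 11EM. In let-7j, the share of the 3p strand was 1.43% ± 0.367 at 1DB, against 0.561% ± 0.117 at 11EM, also higher in all 1DB libraries.

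**Figure D4:**
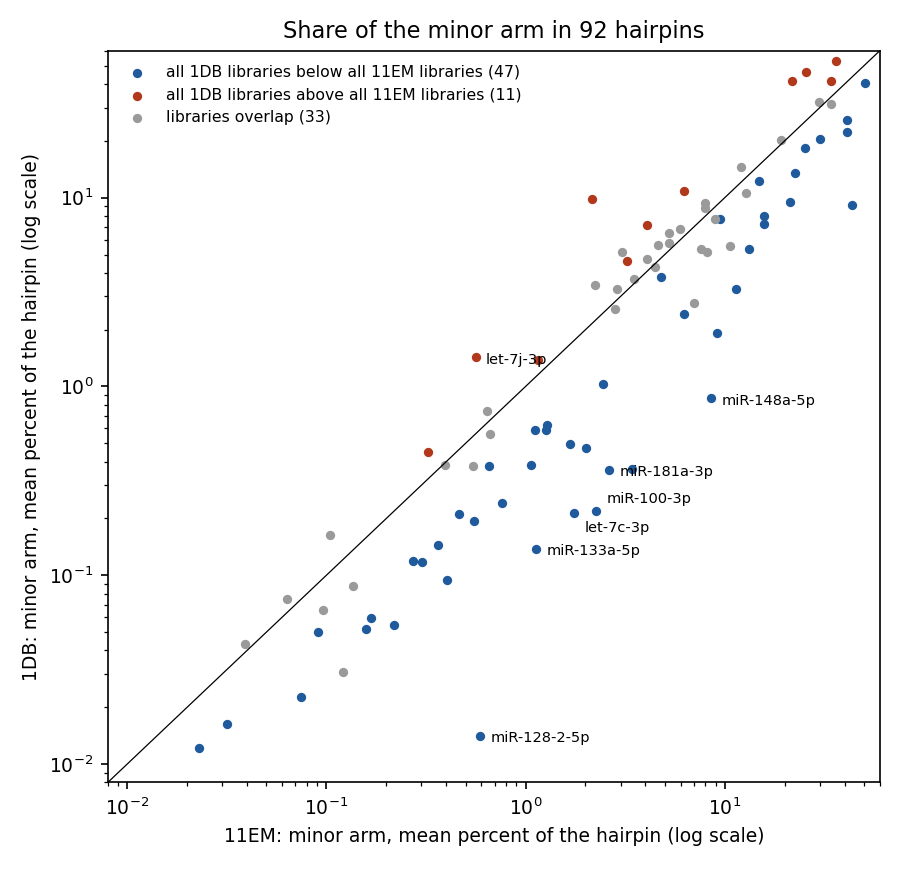
Mean share of the minor strand in the counts of its hairpin, in percent, at 1DB (y axis) and at 11EM (x axis), both on log scales, for 92 hairpins, with a line where the shares are equal; miR-454-5p, with no count at 1DB, and the hairpin of miR-34b are not drawn. Blue points (47, with miR-454-5p) have all 1DB libraries below all 11EM libraries, red points (11) all above, and grey points (33) overlap, so that most points off the line lie under it.

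The stages between the ends placed the changes in time, as a description, since the steps share libraries with the comparison. Of the 50 DE miRNAs higher at 1DB, 24 had their means at 15EM and at 20EM between those of 11EM and 1DB, and in 22 the largest step was the first, to 15EM. Of the 66 lower at 1DB, 31 had both means between, and in 39 the largest step was the last, from 20EM to 1DB. The median rise had reached 38.7% of the log2 change at 15EM and 60.3% at 20EM, and the median fall 6.69% and 47.6%. Of the 66, 27 were higher at 15EM than at 11EM, but 16 by CPM of the miRNA total, by which the median fall had reached 10.9% at 15EM. Of the 50, 12 were lower at 15EM than at 11EM, and 9 were already beyond their 1DB level at 15EM (13 and 13 by CPM of the miRNA total). Tested step by step, 19 of the 50 and 13 of the 66 were called in the direction of their change from 11EM to 15EM, and 16 and 32 from 20EM to 1DB. Called the other way were 0 of the 50 and 3 of the 66 from 11EM to 15EM, and 2 and 1 from 20EM to 1DB. Over all miRNAs tested, 37 were called higher and 26 lower from 11EM to 15EM, and 27 and 50 from 20EM to 1DB. The 50 and the 66 were chosen on the same 11EM and 1DB libraries, which favours calls in their direction at these steps.

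let-7b and miR-24-3p had their largest step on the log scale from 11EM to 15EM, with stage means at 11EM, 15EM, 20EM and 1DB of 104, 897, 1013 and 1669 CPM and of 267, 875, 1016 and 1638 CPM. miR-203a went beyond its level at 1DB in between, with 489, 19557, 30285 and 8008 CPM, and its step from 20EM to 1DB was a fall (log2 fold change −1.77, adjusted p = 0.0017). miR-34a-5p likewise rose to 15EM (3.92) and fell from 20EM to 1DB (−1.87). So did miR-200a-3p, miR-200b-3p and miR-429-3p, not called between the ends (2.27, 2.19 and 1.77 to 15EM, then −1.34, −1.04 and −1.48 from 20EM to 1DB). miR-375 and miR-451 moved mainly in the last step, with 10.7, 8.61, 21.4 and 128 CPM and 1863, 2635, 2624 and 11024 CPM. miR-205b and miR-454-3p also had their largest step on the log scale there, with 9699, 6644, 3983 and 689 CPM and 25539, 23962, 13167 and 3614 CPM. miR-490-3p, named after its values were seen, was lowest at 15EM, with 92.9, 1.60, 13.7 and 12.8 CPM, so its fall by 1DB (−2.39 ± 0.44) came before a partial return. For miR-206 the libraries in between differed widely, with 236, 0.551 and 2.37 CPM at 15EM and 91.1 and 0 CPM at 20EM. miR-133a-3p was at 3170.2, 506 and 410.2 CPM at 15EM and at 5530 and 2239 CPM at 20EM in the same libraries, so that the library high in miR-206 at each stage was also the one high in miR-133a-3p.

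**Figure D5:**
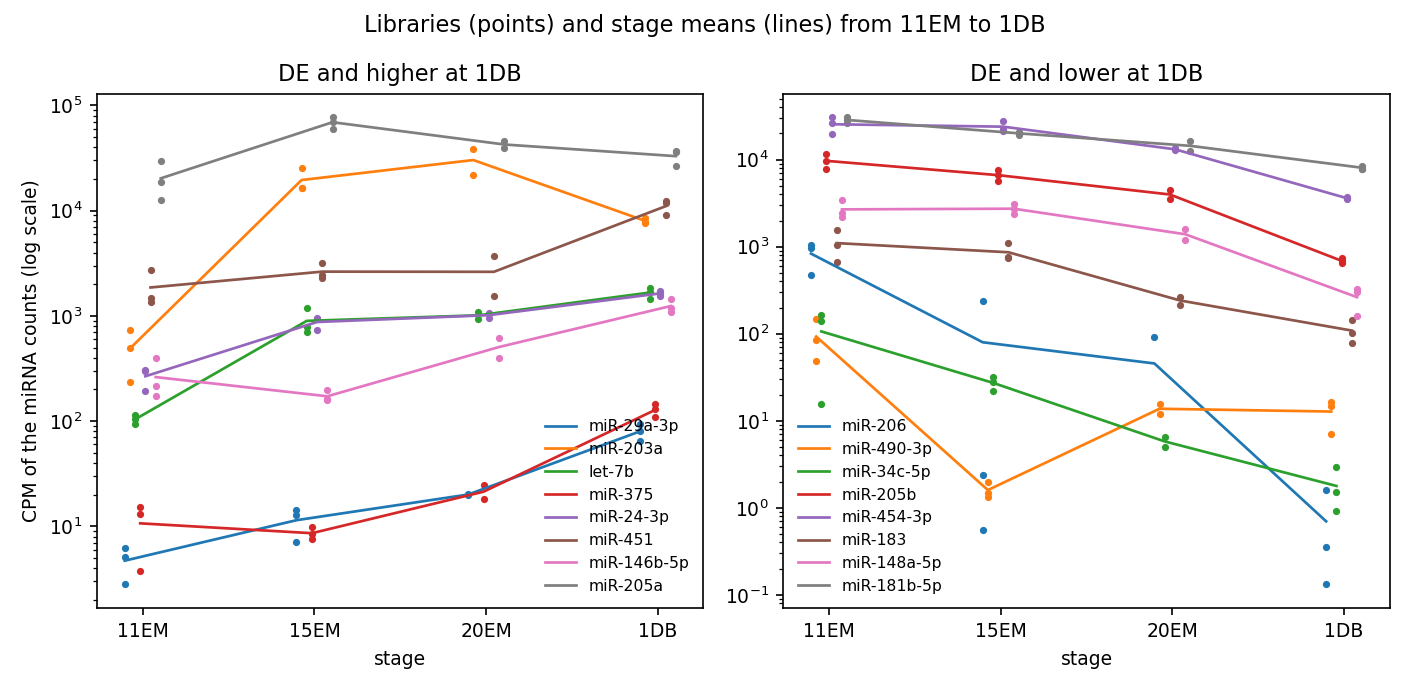
CPM (y axis, log scale) of 8 DE miRNAs higher at 1DB (left) and 8 lower (right) at 11EM, 15EM, 20EM and 1DB; points are libraries (3, 3, 2 and 3) and lines join the stage means, with points of 0 not drawn (miR-206 in 1 library of 20EM). let-7b and miR-203a rise first, miR-375 and miR-451 last, and miR-205b and miR-454-3p have their largest step on the log scale between 20EM and 1DB.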

How the data were processed

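Small RNA was sequenced from duck skin at 6 stages, and 17 libraries were used here; replicate 2 of 20EM was not analysed here. Each file holds raw read counts per mature strand of each chicken hairpin as deposited by the authors, who, per the study's methods, trimmed the reads with the FASTX toolkit, kept those of at least 18 nt, discarded other non-coding RNA, allowing 2 mismatches, and used CLC Genomic Workbench 5.5 to assign what remained to chicken entries of miRBase 21. Counts were not normalized. Counts of lines with one mature name were added up. Names with one sequence split its reads (let-7a-5p and let-7j-5p, let-7a-3p and let-7k-3p, miR-204 and miR-211), and close relatives may share reads. The genome positions were not used here, and sequences are those of the study's supplementary list of chicken miRNAs.

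Fold changes came from 1 fit of the quasi-likelihood model of edgeR 4.0.16 (R 4.3.3) over the 6 stages with TMM scaling, after a filter of 1 CPM in 2 or more of the 6 libraries compared; DE required a Benjamini-Hochberg adjusted p under 0.05 over all 241 and a fold change of at least 2, two-sided. All adjusted p-values are from this fit, and values after ± are standard errors for log2 fold changes and SD for levels and shares. Per-library values are CPM of the miRNA total. Intervals of count ratios are exact 95% binomial. Alternatives were other scalings (the clean reads came from the study's read summary), DESeq2 1.42.0, limma 3.58.1, other filters and thresholds, a fit of the 6 libraries alone, a replicate block, the clean-read percent class as a covariate, and leaving out each library; adding up names of one sequence was chosen after seeing the data. Scripts were tested on simulated data.

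Named are the 10 DE miRNAs with the largest change in each direction (mean of at least 10 CPM in the higher stage, no overlap), the 5 with the largest difference of mean CPM in each direction, the 5 most abundant, and members of the 28 lists. These lists and the comparison were chosen with earlier results of these data known. miR-2954, miR-193a, miR-193b, miR-365, miR-490, miR-128 and those of the closing observations were named after their values were seen, except miR-128-2-5p, which the rule names.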

Additional observations from a re-analysis of the deposited data

Results flagged for a closer look

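miR-29a-5p, the passenger strand of miR-29a, and miR-1711 did not reach the filter at 1DB and 11EM. At 10WK, a stage outside the comparison, they averaged 3.75 and 1.36 CPM over 3 libraries, and every 10WK library was above both the level of 3 counts and all 6 libraries of 1DB and 11EM. No test was made of these levels.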

How the results depend on the processing

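The count of DE miRNAs lay between 84 and 171 over the alternatives that kept the thresholds (116 in the fit reported). Rises ran from 21 to 53 and falls from 52 to 150, so both counts depended on the processing. Of the DE miRNAs, 32 were higher at 1DB by the miRNA total, 21 by clean reads, 31 by limma on log2 CPM (117 DE) and 32 with at least 10 CPM in 3 libraries (184 tested, 84 DE); 150 were lower by clean reads. With a fold change of at least 4, 70 were DE, 28 higher and 42 lower, by construction. DESeq2 called 116, and adding up names of 1 sequence gave 115. Leaving out 1 library gave 108 to 119 DE miRNAs, 38 to 53 higher and 64 to 73 lower; without replicate 3 of 11EM, 111 were DE, of which 100 were shared. With the clean-read percent class as a covariate 117 were DE. No other alternative turned the sign of a called log2 fold change of a named miRNA or one that it called; scaling by clean reads turned the sign of 39 such log2 fold changes (those not called in either fit are left out), all positive with TMM: let-7a-3p −0.21, let-7a-5p −0.19, let-7c-5p −1.05, let-7f-3p −0.14, let-7f-5p −0.38, let-7g-3p −1.03, let-7i −0.47, let-7j-5p −0.19, let-7k-3p −0.25, miR-10a-5p −1.09, miR-10b-5p −1.02, miR-125b-5p −1.01, miR-126-3p −0.35, miR-126-5p −0.43, miR-130c-3p −1.03, miR-138-2-3p −1.45, miR-142-3p −0.41, miR-142-5p −0.35, miR-146a-5p −1.07, miR-146c-3p −1.21, miR-146c-5p −1.40, miR-15b-5p −0.25, miR-16-5p −1.28, miR-196-5p −1.04, miR-200b-5p −1.07, miR-205a −0.25, miR-21-5p −1.19, miR-2188-3p −0.47, miR-22-5p −0.47, miR-221-3p −0.31, miR-221-5p −1.43, miR-30b-5p −0.48, miR-30c-1-3p −1.34, miR-30c-2-3p −1.31, miR-30d −1.23, miR-30e-3p −1.27, miR-455-3p −1.36, miR-99a-3p −1.35 and miR-99a-5p −1.51; this scaling moved the median of all miRNAs by −1.50. Of the DE miRNAs higher at 1DB, 24 had both means of 15EM and 20EM between the ends, 21 from CPM of the miRNA total and 27 from medians; of those lower, 31, 44 and 37. Higher at 15EM than at 11EM were 27 of the 66, and 16 and 22 by these alternatives.

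Libraries of both stages carry the numbers 1 to 3. The deviations of same-numbered libraries correlated at r = −0.13, −0.24 and 0.11 over 180 miRNAs, and those of differently numbered libraries at −0.18 to 0.28. With 3 libraries a stage, these values cannot settle whether the numbers pair the libraries. With a replicate block 118 were DE, 51 higher and 67 lower, and 115 were shared. A run on reads without a mismatch was not made, as the counts used here were not split that way. At 1DB, 3 counts are up to 0.485 CPM, so that levels around or below this rest on few reads. With 3 libraries a stage, changes close to 2-fold often turned on 1 library.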

Other observations

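Some changes lay outside the lists; these miRNAs were chosen after their values were seen. miR-2188-5p, known from birds and fish, had 2605, 2414 and 2140.2 CPM at 1DB, against 509, 1091 and 305 CPM at 11EM, with every 1DB library above every 11EM library (log2 fold change 2.37 ± 0.44, by clean reads 0.87 and not called). miR-456-3p, the most abundant of the falls outside the lists, had 818, 912 and 581 CPM at 1DB, against 2859, 3486 and 3299 CPM at 11EM (log2 fold change −1.61 ± 0.17). Both strands of miR-551 fell, and miR-551-3p had 5.65, 10.9 and 8.40 CPM at 1DB, against 52.7, 58.5 and 67.6 CPM at 11EM (log2 fold change −2.38 ± 0.33), and its share of the hairpin was 53.2% ± 4.93 at 1DB, against 36.2% ± 2.90 at 11EM. miR-135a-5p had 5.33, 4.34 and 3.27 CPM at 1DB, against 46.2, 24.7 and 35.3 CPM at 11EM, again without overlap (log2 fold change −2.58 ± 0.26). miR-32-5p, which shares the seed of miR-92-3p, rose and had 15.5, 25.6 and 17.2 CPM at 1DB, against 8.66, 7.58 and 9.66 CPM at 11EM (log2 fold change 1.62 ± 0.21), whereas miR-92-3p, far more abundant at both stages, lay lower in every 1DB library (log2 fold change −0.94 ± 0.23, not called). Of these, miR-456-3p, both strands of miR-551 and miR-135a-5p were called lower by each of the 4 scalings.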
